A study of Mus musculus with 114 samples.

Results

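The genes described here are 9 Toll-like receptors (Tlr1, Tlr2, Tlr3, Tlr4, Tlr5, Tlr7, Tlr8, Tlr9 and Tlr13) and Cd14, chosen by gene symbol, 10 of the 29132 genes measured by RNA-seq. All 10 were found. The RNA came from the floating adipocyte fraction of the perigonadal fat of male mice (C57BL/6 in the labels, C57BL/6J in the methods of the study), which received either chow (CD) or a high fat diet (HFD) from 6 weeks of age on. Libraries of 38 mice were analysed, with 6 CD and 6 HFD mice after 8 weeks and after 20 weeks of diet, and 8 CD and 6 HFD mice after 34 weeks. The 3 technical replicates of each mouse had been merged, and each mouse counted as 1 sample. CD mice aged alongside the HFD mice, so that each diet comparison is within 1 age and each comparison of times combines age and time on diet. Age and any processing group shared by mice of 1 time cannot be told apart.

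Toll-like receptors are sensors of the innate immune system that recognise microbial molecules and some molecules released by damaged tissue. TLR1, TLR2, TLR4 and TLR5 act at the cell surface on lipopeptides, lipopolysaccharide and flagellin, whereas TLR3, TLR7, TLR8, TLR9 and the rodent receptor TLR13 act in endosomes on nucleic acids. CD14 is a co-receptor that passes lipopolysaccharide to TLR4. In fat, both adipocytes and macrophages are known to carry receptors of this family, and macrophages gather around adipocytes in obesity.

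Values are CPM, the reads of a gene scaled to the same total in every mouse, and 1 read was worth 0.0646 to 0.108 CPM. Fold changes are on the log2(CPM + 1) scale, which understates the change of low genes, and adjusted p-values are from limma with Benjamini-Hochberg adjustment over the 10343 genes whose mean log2(CPM + 1) was above 2.0. A gene was called at an adjusted p under 0.05. All 10 genes passed that mean, none was below it, and Tlr1 and Tlr9 rested on the fewest reads, with 2 to 37 reads for Tlr1 and 5 to 39 reads for Tlr9 in the 8 week CD mice. The median log2 fold change of all genes tested for HFD against CD was 0.11 at 8 weeks, 0.14 at 20 weeks and 0.07 at 34 weeks on this scale, and 0.01, -0.07 and -0.01 after TMM scaling, so small changes should be read against these medians.

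Reads per mouse ranged from 9275711 to 15480388, and at 8 weeks the diets did not overlap in depth (10562845 to 12611013 reads in CD and 13201234 to 15480388 in HFD mice), whose part in the results was not tested. The adipocyte label was checked with markers. The summed CPM of 10 adipocyte markers (Adipoq, Plin1, Lipe and others) ranged from 37998 to 46227 in 8 week CD mice and from 17799 to 41566 in 34 week HFD mice. The summed CPM of 13 macrophage markers (Csf1r, Cd68, C1qa, Lyz2 and others) ranged from 322 to 1533 in CD and from 1126 to 3155 in HFD mice at 8 weeks. At 20 weeks the ranges were 507 to 3237 in CD and 4350 to 8119 in HFD mice, and at 34 weeks 1230 to 12610 and 5027 to 15136. None of the 13 was at 0 in all mice of a group. For the lists that follow, the shares of all genes called higher and lower in HFD mice were 29.8% and 15.1% at 8 weeks, 38.3% and 18.7% at 20 weeks, and 27.5% and 15.7% at 34 weeks. Of 12 macrophage markers tested, 6, 9 and 9 were higher in HFD mice at 8, 20 and 34 weeks, and 1, Cd163, was lower at 20 weeks (log2 fold change -1.35 ± 0.45, adjusted p = 0.0113). In CD mice 10 of the 12 were higher at 34 than at 8 weeks, against 40.1% of all genes. Of the 10 adipocyte markers, 1 was lower in HFD mice at 8 weeks, 7 at 20 weeks and 8 at 34 weeks, whereas Lep, the leptin gene, was higher at 8 weeks (2.18 ± 0.52, adjusted p = 0.00118) and 20 weeks (2.90 ± 0.52, adjusted p = 1.78e-05). In bulk RNA of this kind, fewer cells of a type and less RNA per cell cannot be told apart. Summed neutrophil markers ranged from 1.89 to 44.8 CPM. Of these 6 markers Ly6g was at 0 in every mouse and 2 were tested, of which S100a8 was higher in HFD mice at 8 weeks (1.56 ± 0.42, adjusted p = 0.0034), and S100a8 and Csf3r were both higher in 34 than in 8 week CD mice. Summed B cell markers stayed at or below 5.90 CPM, and summed T and NK cell markers at or below 0.684 CPM. Summed dendritic cell markers ranged from 8.31 to 39.1 CPM, with the highest values in 20 week CD mice. Only 1 of these 6 markers, Zbtb46, was tested, and a single marker reached up to 28.5 CPM in 20 week CD mice. Markers of endothelial cells (5 of 5) were all called higher in the HFD group at 8, 20 and 34 weeks, and so were 3, 4 and 2 of 4 progenitor and fibroblast markers at 8, 20 and 34 weeks. The part of these other cells in the results below was not tested, apart from the fits with the macrophage marker mean given further on.

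Per length of exon, Cd14 was the highest of the 10 genes in every group, and the receptors changed places with diet and age. In the 8 week CD mice, Cd14 stood at 99.7 ± 45.6 CPM per kb (SD, n = 6). Tlr2 and Tlr4 followed at 12.4 ± 7.33 and 10.9 ± 1.90 CPM per kb, which overlapped between mice. Tlr13 and Tlr1 were near the bottom of that order at 0.920 ± 0.705 and 0.422 ± 0.285 CPM per kb. In the 20 week HFD mice, Cd14 stood at 336 ± 191 and Tlr2 at 97.3 ± 19.3 CPM per kb. Tlr13 followed at 29.5 ± 7.58 CPM per kb, ahead of Tlr8 at 18.7 ± 4.51 and Tlr7 at 12.1 ± 2.45 CPM per kb. Tlr4 stood at 8.23 ± 1.01 CPM per kb, beside Tlr1 at 8.49 ± 1.59 CPM per kb. Tlr5 and Tlr9 were the lowest, at 1.46 ± 0.247 and 1.28 ± 0.476 CPM per kb, and did not differ beyond their spread.

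**Figure D1:**
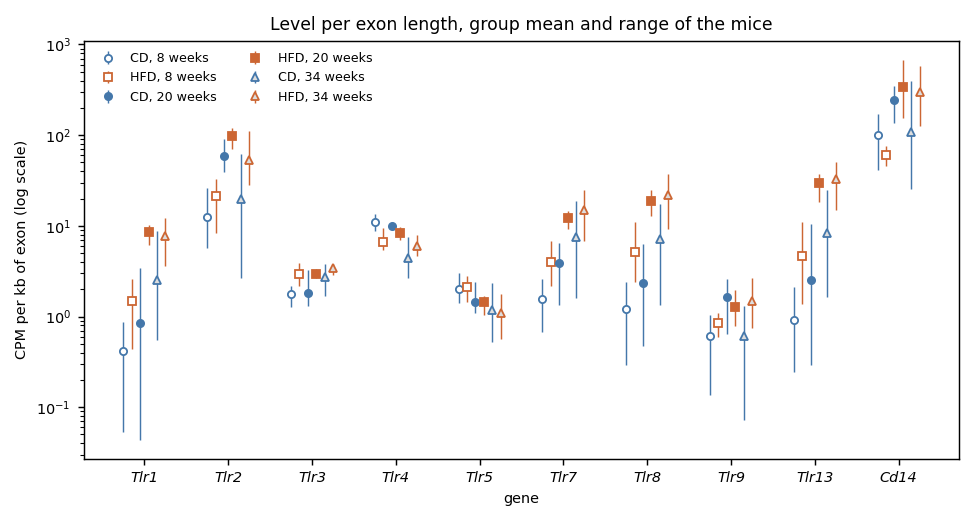
Mean CPM per kb of exon (vertical axis, log scale) of each of the 10 genes in the 6 groups, with lines from the lowest to the highest mouse. Tlr13 moves from 0.920 in 8 week CD mice to 29.5 in 20 week HFD mice, past Tlr4, which moves from 10.9 to 8.23.

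The first comparison asked which of these genes differed between the diets at each time. At 8 weeks 5 of 10 were higher in HFD mice (Tlr1, Tlr3, Tlr7, Tlr8 and Tlr13), against 29.8% of all genes tested, and Tlr4 was lower, as were 15.1% of all genes. At 20 weeks the same 5 were higher, against 38.3% of all genes, and none was lower, against 18.7%. At 34 weeks 8 of 10 were higher (all but Tlr3 and Tlr5), against 27.5% of all genes, and none was lower, against 15.7%. The median log2 fold change of the 10 genes was 0.71, 0.72 and 1.45 at the 3 times, beside the medians of all genes given above. The diets did not overlap for 4 of the 10 genes at 20 weeks (Tlr1, Tlr7, Tlr8 and Tlr13), against 37.2% of all genes, and overlapped for all 10 at 8 weeks, where 22.8% of all genes did not, and at 34 weeks, where 2.46% did not. With 10 genes, the shares at 20 weeks are near those of all genes.

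**Figure D2:**
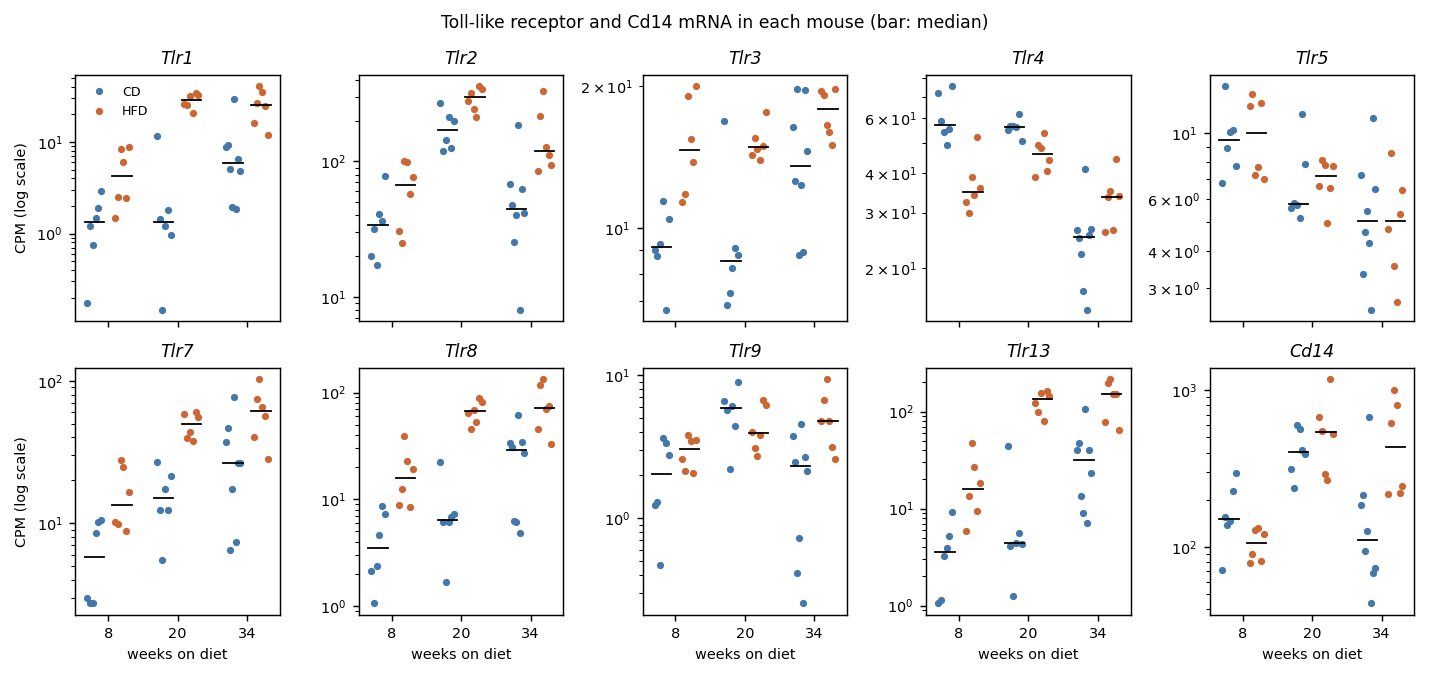
CPM (vertical axis, log scale) of each gene in each of the 38 mice, by weeks on diet, with CD mice in blue, HFD mice in orange and bars at the medians. Tlr1, Tlr7, Tlr8 and Tlr13 separate the diets at 20 weeks, Tlr4 is lower in HFD mice at 8 weeks and lowest in 34 week CD mice, and Tlr5 lies at similar levels in both diets.

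Tlr13, which recognises bacterial ribosomal RNA, showed the largest differences of the 10 genes. Its lowest, median and highest values at 20 weeks were 1.25, 4.37 and 44.7 CPM in CD mice and 79.6, 134 and 161 CPM in HFD mice. All 6 HFD mice were above every CD mouse, although CD mouse 1 was far above the other CD mice. The log2 fold change was 4.18 ± 0.57 (SE, adjusted p = 4.76e-07), and the ratio of the group means was 11.8. At 8 weeks the values were 1.06, 3.55 and 9.20 CPM in CD and 5.95, 15.8 and 47.5 CPM in HFD mice, with 5 of 6 HFD mice above every CD mouse (log2 fold change 2.03 ± 0.57, adjusted p = 0.00488). At 34 weeks CD mice reached 7.11, 31.6 and 107 CPM and HFD mice 64.2, 151 and 215 CPM, and 4 of 6 HFD mice were above every CD mouse (log2 fold change 2.30 ± 0.54, adjusted p = 0.00107).

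Tlr8, a receptor of the same endosomal group on RNA, followed the same course. At 20 weeks it ranged from 1.69 over a median of 6.46 to 22.4 CPM in CD mice and from 45.7 over 66.8 to 88.5 CPM in HFD mice. The diets did not overlap, and the log2 fold change was 3.11 ± 0.52 (adjusted p = 6.59e-06). The log2 fold changes at 8 and 34 weeks were 1.89 ± 0.52 (adjusted p = 0.00383) and 1.87 ± 0.48 (adjusted p = 0.00257), and all 6 HFD mice were above the CD mean at each time. Tlr7, a receptor for single-stranded RNA, lies beside Tlr8 on chromosome X (GRCm38, Tlr8 at 167242696 to 167264329 and Tlr7 at 167304929 to 167330558, both on the minus strand). Its values at 20 weeks were 5.52, 14.9 and 26.7 CPM in CD and 38.0, 49.98 and 60.1 CPM in HFD mice, again without overlap. Its log2 fold changes were 1.30 ± 0.44 (adjusted p = 0.0175), 1.68 ± 0.44 (adjusted p = 0.00171) and 1.24 ± 0.42 (adjusted p = 0.0164) at 8, 20 and 34 weeks. The call of Tlr7 at 34 weeks was lost with edgeR (adjusted p = 0.0567), in a limma fit of the 34 week groups alone (adjusted p = 0.0747) and without HFD mouse 3 (adjusted p = 0.0565), and that at 8 weeks without HFD mouse 3 (adjusted p = 0.0542).

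Tlr1, which pairs with TLR2 on triacylated lipopeptides, was the other receptor that separated the diets at 20 weeks. It lay at 0.147, 1.33 and 11.6 CPM (lowest, median, highest) in CD mice and at 20.5, 28.7 and 34.1 CPM in HFD mice, a log2 fold change of 3.40 ± 0.47 (adjusted p = 5.56e-07). CD mouse 1 held the highest CD value, and the other 5 CD mice were at or below 1.83 CPM. At 8 weeks CD mice lay at 0.176, 1.35 and 2.93 CPM and HFD mice at 1.47, 4.25 and 8.74 CPM, with overlap, and the log2 fold change of 1.20 ± 0.47 passed narrowly (adjusted p = 0.0368). It did not pass without any 1 of 6 mice of that time, CD mice 1, 2 and 3 and HFD mice 3, 4 and 6, with adjusted p-values of 0.0539 to 0.0986 in limma, nor with all genes of at least 1 read in 6 mice tested (adjusted p = 0.0502) or with the mouse number as replicate block (adjusted p = 0.0582). The log2 fold change at 34 weeks was 1.80 ± 0.44 (adjusted p = 0.0017). Of the 50 base windows of the annotated Tlr1 transcripts, 15.4% occur in another gene too, mostly in Tlr6, so a part of the Tlr1 reads may be uncertain.

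The 250 bases before the RefSeq start sites (GRCm38) were searched on both strands for 3 sets of letters that resemble binding motifs of factors known in myeloid and inflammatory gene control. These were GAGGAAGT for PU.1, GAAANNGAA for interferon regulatory factors and GGGNNTTCC for NF-kappaB. Windows were found for 7 of the 10 genes (8 windows, as Tlr1 has 2), and for Tlr4, Tlr7 and Cd14 none was used. Among 32851 promoter windows of this length, 2.44% held the PU.1 letters, 7.13% those of interferon regulatory factors and 4.98% those of NF-kappaB. Of the Tlr1 windows, 1 held the PU.1 letters 23 bases before the start, Tlr8 those of interferon regulatory factors 67 bases before it on the opposite strand, and Tlr2 those of NF-kappaB on both strands at overlapping positions, 172 and 171 bases before the start. Only the Tlr8 match lies before every annotated start, since RefSeq also has Tlr1 and Tlr2 transcripts that begin farther upstream (at 64933600 on chromosome 5 and 83841824 on chromosome 3), so that the Tlr1 and Tlr2 matches lie within those genes. The windows of Tlr3, Tlr5, Tlr9 and Tlr13 held none of the 3. That of Tlr3 lies wholly within the gene, so the bases before its outermost start were not searched. The 30 bases around each match are shown because Tlr1 and Tlr8 passed at each of the 3 times and Tlr2 rose on both diets from 8 to 20 weeks, with the matched letters in capitals and the sequence 5′ to 3′ on the strand of the gene. The positions are chr5:64933563-64933592, minus strand, chrX:167264378-167264407, minus strand, and chr3:83841762-83841791, minus strand. A match is a description of letters and not of binding.
Tlr1: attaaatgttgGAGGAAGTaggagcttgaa
Tlr8: tttcctctgaaTTCAGTTTCgaaattttta
Tlr2: taggacacctgGGGAATTCCcacacggagc

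For Tlr13, the gene with the largest differences, the 179 bases of the window that lie before every annotated start are shown (chrX:106143025-106143203, plus strand), in which no letters are in capitals as none of the 3 motifs matched.
Tlr13: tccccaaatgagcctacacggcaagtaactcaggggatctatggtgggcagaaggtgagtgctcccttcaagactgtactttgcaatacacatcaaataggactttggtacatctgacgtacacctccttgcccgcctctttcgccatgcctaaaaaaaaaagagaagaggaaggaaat

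Tlr2, which encodes the partner of TLR1 and TLR6, rose from 8 to 20 weeks on both diets. Its lowest, median and highest values were 17.2, 34.0 and 78.4 CPM in 8 week CD mice and 119, 171 and 271 CPM in 20 week CD mice, and the ages did not overlap, as was so for 3.73% of all genes (log2 fold change 2.33 ± 0.46, adjusted p = 0.0021). HFD mice rose from 25.1, 67.3 and 99.8 CPM to 213, 299 and 361 CPM over the same span, again without overlap (log2 fold change 2.32 ± 0.46, adjusted p = 0.000346). Between the diets, the log2 fold change was 0.77 ± 0.46 at 8 weeks (adjusted p = 0.166) and 0.76 ± 0.46 at 20 weeks (adjusted p = 0.156), with 95% intervals of -0.16 to 1.69 and -0.17 to 1.68. The 20 week difference passed in a limma fit of the 20 week groups alone (adjusted p = 0.00592), and both passed with limma's array weights. At 34 weeks CD mice stood at 8.04, 44.4 and 186 CPM and HFD mice at 84.7, 119 and 332 CPM, with overlap through CD mouse 5, and Tlr2 was higher in HFD mice (log2 fold change 1.67 ± 0.43, adjusted p = 0.00236).

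Tlr4, the receptor for lipopolysaccharide, was the only one of the 10 genes called lower in HFD mice in the fit of diet and week, and its diet difference turned direction with age. At 8 weeks it lay at 49.2, 57.0 and 75.8 CPM in CD and at 29.9, 34.95 and 52.1 CPM in HFD mice, and 5 of 6 HFD mice were below every CD mouse. The log2 fold change was -0.70 ± 0.16 (adjusted p = 0.000822). At 20 weeks CD mice lay at 50.6, 56.1 and 61.6 CPM and HFD mice at 38.9, 46.1 and 53.6 CPM, with 5 of 6 HFD mice below every CD mouse. The log2 fold change of -0.29 ± 0.16 did not pass (adjusted p = 0.117), but it was -0.51 and passed with TMM scaling (adjusted p = 0.00348), and it passed with DESeq2 and edgeR as well. At 34 weeks the values were 14.7, 25.2 and 41.3 CPM in CD and 26.0, 33.7 and 44.3 CPM in HFD mice. The groups overlapped, all 6 HFD mice were above the CD mean, and the log2 fold change was 0.44 ± 0.15 (adjusted p = 0.0167). That call was lost with edgeR (adjusted p = 0.0513), in a fit of the 34 week groups alone (adjusted p = 0.103) and without HFD mouse 5 (adjusted p = 0.0613).

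The change of the Tlr4 diet difference was itself tested as an interaction. It was 1.14 ± 0.22 on the log2 scale at 34 against 8 weeks (adjusted p = 0.000296), where 28.8% of all genes were called, and 0.73 ± 0.22 at 34 against 20 weeks (adjusted p = 0.0275), where 10.5% were called. Over 49 alternative settings, the first was called in 49 and ranged from 1.05 to 1.25, and the second was called in 47, and lost without 20 week HFD mouse 1 (adjusted p = 0.0516) and without 34 week HFD mouse 5 (adjusted p = 0.0545). In CD mice Tlr4 fell by 1.30 ± 0.15 on the log2 scale from 8 to 34 weeks (adjusted p = 1.73e-08), with all 8 mice of 34 weeks below every mouse of 8 weeks (24.7% of all genes did not overlap between these groups). In HFD mice Tlr4 fell from 20 to 34 weeks (log2 fold change -0.47 ± 0.16, adjusted p = 0.0266), a call made in 44 of 49 alternatives and lost without 20 week mouse 2 or 4, without 34 week mouse 1 or 4 (adjusted p = 0.053 to 0.0786) and with array weights (adjusted p = 0.0846).

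The diet difference of Cd14 changed with age too, but Cd14 was not called lower at 8 weeks and varied more between mice. At 8 weeks it lay at 71.7, 151 and 299 CPM in CD and at 79.0, 106 and 132 CPM in HFD mice, all HFD mice being below the CD mean (log2 fold change -0.61 ± 0.47, adjusted p = 0.297, 95% interval -1.56 to 0.35). At 20 weeks the values were 237, 403 and 597 CPM in CD and 266, 539 and 1176 CPM in HFD mice, and the groups overlapped widely (log2 fold change 0.36 ± 0.47, adjusted p = 0.537). At 34 weeks CD mice lay at 43.7, 110 and 678 CPM and HFD mice at 216, 432 and 1010 CPM, and Cd14 was higher in HFD mice (log2 fold change 1.72 ± 0.44, adjusted p = 0.0024), CD mouse 5 holding the highest CD value. The change of its diet difference at 34 against 8 weeks was 2.33 ± 0.65 (adjusted p = 0.00709), where 28.8% of all genes were called. That change was called in 49 of 49 alternative settings. In HFD mice Cd14 rose from 8 to 20 weeks without overlap (log2 fold change 2.30 ± 0.47, adjusted p = 0.000501).

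Tlr3, the receptor for double-stranded RNA, differed little but evenly between the mice. At 8 weeks it lay at 6.71, 9.13 and 11.4 CPM in CD and at 11.4, 14.6 and 20.1 CPM in HFD mice, with 5 of 6 HFD mice above every CD mouse (log2 fold change 0.65 ± 0.18, adjusted p = 0.00389). At 20 weeks the log2 fold change was 0.68 ± 0.18 (adjusted p = 0.00163), and CD mouse 1 held the highest CD value. At 34 weeks CD mice spread from 8.77 to 19.7 CPM and HFD mice from 15.04 to 19.7 CPM, and the difference of 0.35 ± 0.17 did not pass (adjusted p = 0.0847), although it did without CD mouse 3 (adjusted p = 0.0414) or CD mouse 7 (adjusted p = 0.0374) and with the mouse number as replicate block (0.45, adjusted p = 0.0394). An annotated gene on the opposite strand, Gm45542, overlaps Tlr3, and whether the counting used strand is not given in the sources used here.

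Tlr9, the receptor for unmethylated CpG DNA, was low in all groups. At 34 weeks it lay at 0.254, 2.31 and 4.53 CPM in CD and at 2.61, 4.76 and 9.35 CPM in HFD mice, with 4 of 6 HFD mice above every CD mouse (log2 fold change 1.09 ± 0.31, adjusted p = 0.0056), a call that was lost with array weights (adjusted p = 0.164). No difference between the diets passed at 8 weeks (0.42 ± 0.33, adjusted p = 0.302) or at 20 weeks (-0.26 ± 0.33, adjusted p = 0.515). Tlr5, the receptor for flagellin, passed in no diet comparison. Its log2 fold changes were 0.04 ± 0.24, 0.03 ± 0.24 and -0.07 ± 0.23 at 8, 20 and 34 weeks (adjusted p = 0.914, 0.915 and 0.824), and the 95% intervals of -0.45 to 0.52, -0.46 to 0.52 and -0.52 to 0.39 still allow changes of such size. The sign at 8 and 20 weeks was negative with TMM scaling, size factors, edgeR and DESeq2, without a call. Group means of Tlr5 ran from 5.23 ± 2.10 CPM in 34 week HFD mice to 10.1 ± 3.06 CPM in 8 week HFD mice (SD, n = 6 each).

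**Figure D3:**
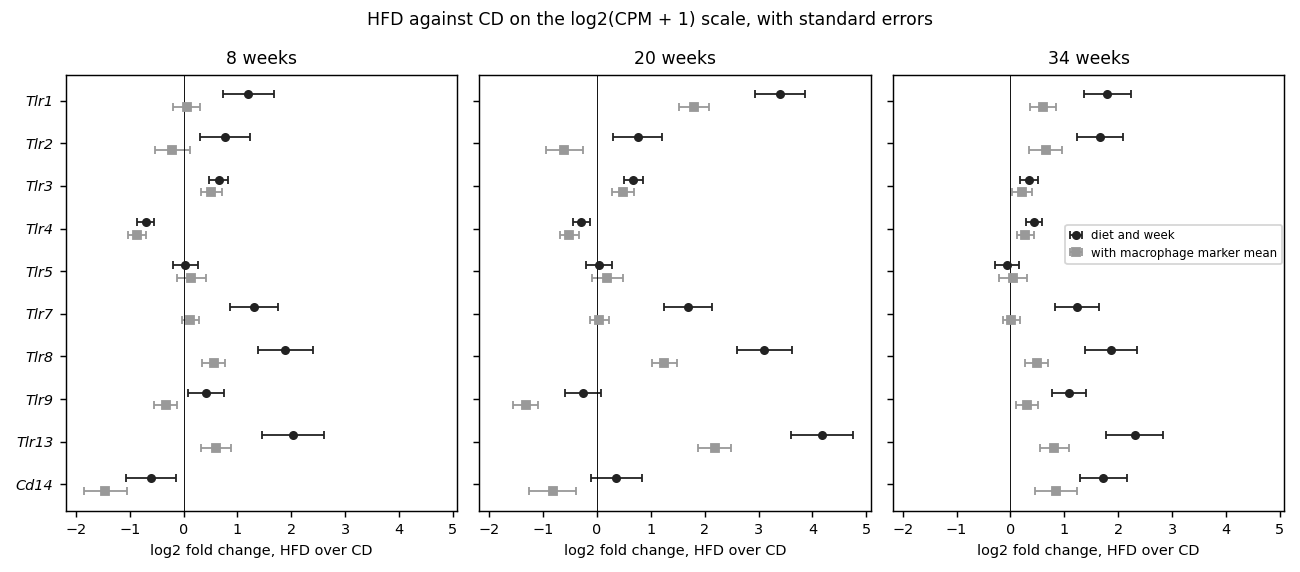
Log2 fold change of HFD over CD (horizontal axis, with SE) for each gene at 8, 20 and 34 weeks, from the fit of diet and week (black circles) and with the macrophage marker mean as a covariate (grey squares). Tlr13 at 20 weeks moves from 4.18 to 2.18, Tlr7 from 1.68 to 0.04, and Tlr4 at 8 weeks from -0.70 to -0.86.

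The other comparisons asked what changed with time within a diet. These share groups with the diet comparisons and with each other, and they are given side by side only. From 8 to 20 weeks in CD mice, 2 of 10 genes were higher (Tlr2 and, narrowly, Tlr9 at an adjusted p of 0.0496, called in 16 of 49 alternatives), against 1.7% of all genes, and none was lower, against 1.88%. From 8 to 34 weeks in CD mice, 5 of 10 were higher (Tlr1, Tlr3, Tlr7, Tlr8 and Tlr13), against 40.1% of all genes, and Tlr4 and Tlr5 were lower, against 24.6%. Tlr13 had the largest of these changes (log2 fold change 2.65 ± 0.54, adjusted p = 7.54e-05), followed by Tlr8 (2.09 ± 0.48, adjusted p = 0.000359) and Tlr7 (1.93 ± 0.42, adjusted p = 0.000168). Tlr5 fell by 0.75 ± 0.23 (adjusted p = 0.00442). From 8 to 20 weeks in HFD mice, 6 of 10 were higher (Tlr1, Tlr2, Tlr7, Tlr8, Tlr13 and Cd14), against 21.2% of all genes, all 6 without overlap of the times (24.6% of all genes did not overlap), and none was lower, against 15.3%. From 20 to 34 weeks in HFD mice, none of the 10 was higher, against 17.8% of all genes, and 1, Tlr4, was lower, against 12.5%.

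No gene of the 10 was called for a change of its diet difference from 8 to 20 weeks, where 4.49% of all genes were. Tlr1 came nearest, with 2.19 ± 0.67 on the log2 scale and an adjusted p of 0.05002 just above the threshold, and Tlr13 had 2.15 ± 0.81 (adjusted p = 0.0937). With CD mouse 1 of 20 weeks and CD mouse 5 of 34 weeks left out, a choice made after the data were seen, both passed, at 2.63 (adjusted p = 0.00166) and 2.70 (adjusted p = 0.00705). In the same fit, 5 genes passed for the change from 20 to 34 weeks, Tlr1 at -1.74, Tlr13 at -2.14, Tlr4 at 0.85, Tlr9 at 1.44 and Cd14 at 1.78. The share of all genes called in that fit is not given here, so this count has no background. Those 2 mice had the highest macrophage marker means of their groups, and also the highest Tlr1 and Tlr13 values of their groups. The 34 week mouse also held the highest Tlr4, Tlr9 and Cd14 values of its group. Leaving the 2 mice out lowers the CD means of Tlr1 and Tlr13 at both times by construction. It also lowers those of Tlr4, Tlr9 and Cd14 at 34 weeks, so none of these passes is separate support. Among Tlr4, Tlr9 and Cd14, only Tlr4 passed in limma with all mice (adjusted p = 0.0275, 0.0508 and 0.163).

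The macrophage markers moved with most of the 10 genes, also among mice of the same diet and time. After the group means were removed, the Pearson correlation with the mean log2(CPM + 1) of the 13 macrophage markers over 38 mice was 0.947 for Tlr7, 0.927 for Tlr8, 0.899 for Tlr13, 0.875 for Tlr1, 0.829 for Tlr9, 0.769 for Tlr2 and 0.644 for Cd14. Permutation p-values came from 100000 two-sided permutations within groups and were adjusted over the 10 genes. They were 2e-05 for Tlr1, Tlr7, Tlr8, Tlr9 and Tlr13, 3e-05 for Tlr2 and 0.00024 for Cd14. Before adjustment the permutation p-values of Tlr1, Tlr7, Tlr8, Tlr9 and Tlr13 were 1e-05, the smallest that 100000 permutations can give. Spearman's rho was 0.951, 0.906, 0.880, 0.883, 0.833, 0.765 and 0.626 in the same order as Pearson's r above, with adjusted permutation p-values of 2e-05 for the first 6 and 0.00031 for Cd14. Without the 2 mice farthest from the median of the marker mean, both 8 week CD mice, Pearson's r lay between 0.672 and 0.943 for these 7 genes. Tlr3 (r = 0.279, adjusted permutation p = 0.189; rho = 0.224, adjusted permutation p = 0.251), Tlr4 (r = 0.369, adjusted permutation p = 0.0799; rho = 0.160, adjusted permutation p = 0.384) and Tlr5 (r = -0.167, adjusted permutation p = 0.405; rho = -0.250, adjusted permutation p = 0.215) did not pass, and without those mice r was 0.288, 0.361 and -0.112.

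**Figure D4:**
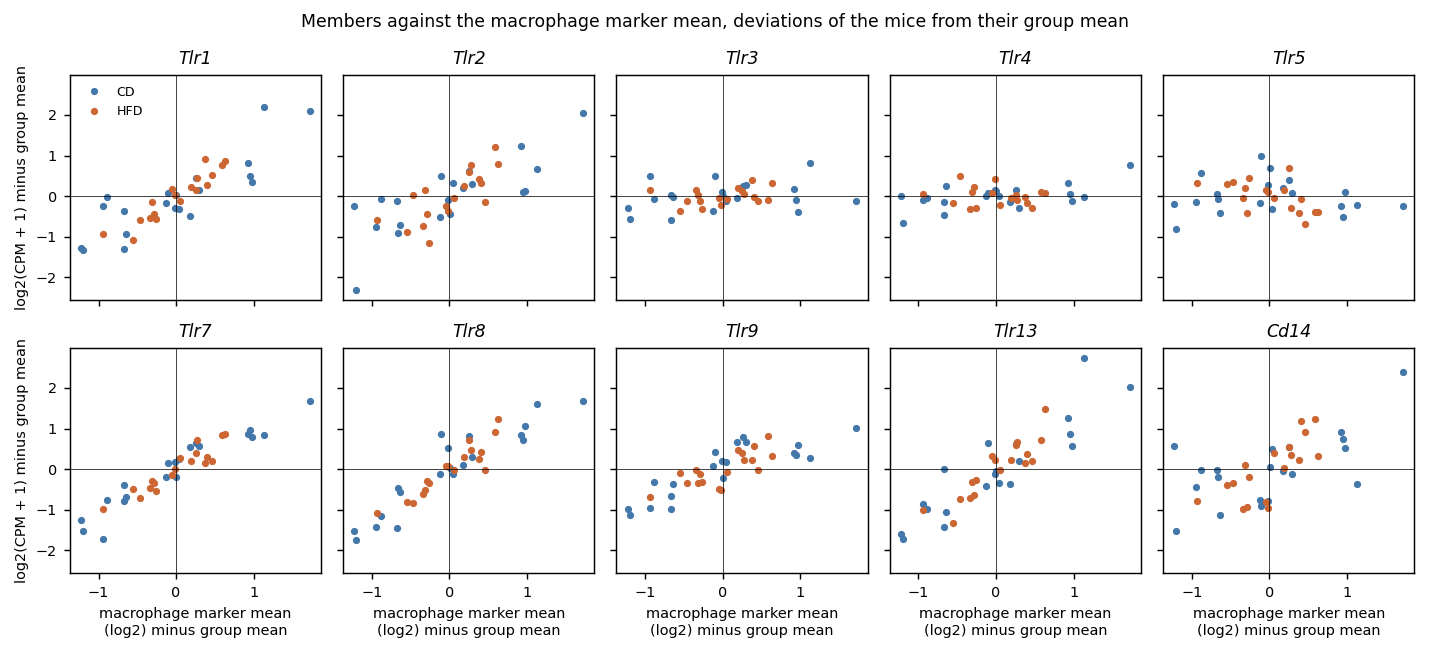
Deviation of each mouse from its group mean for each gene (vertical axis, log2(CPM + 1)) against that of the macrophage marker mean (horizontal axis, log2), with CD mice in blue and HFD mice in orange. Tlr7 (r = 0.947) lies along a line, whereas Tlr3, Tlr4 and Tlr5 spread around 0 (r = 0.279, 0.369 and -0.167).

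With the macrophage marker mean as a covariate, which itself differs between the diets, 4 of 10 genes were called at 8 weeks (Tlr3 and Tlr8 higher, Tlr4 and Cd14 lower), 5 at 20 weeks (Tlr1, Tlr8 and Tlr13 higher, Tlr4 and Tlr9 lower) and 1 at 34 weeks (Tlr13 higher). In the same fits 22.5% of all genes were called higher and 14.6% lower at 8 weeks, 24.6% and 10.8% at 20 weeks, and 9.34% and 4.73% at 34 weeks. Tlr7 came to 0.13 ± 0.16, 0.04 ± 0.18 and 0.01 ± 0.16 at the 3 times (adjusted p = 0.56, 0.868 and 0.964). The marker mean did not overlap between the diets at 20 weeks, at 4.56 to 6.91 in CD and 7.00 to 7.72 in HFD mice. Values with the covariate at that time are extrapolated from slopes within groups, and diet and macrophage content cannot be told apart there. At 20 weeks Tlr13 had a log2 fold change of 2.18 ± 0.30 (adjusted p = 3.9e-06), Tlr1 1.80 ± 0.28 (adjusted p = 1.3e-05) and Tlr8 1.25 ± 0.24 (adjusted p = 0.000128). Tlr9 came to -1.32 ± 0.23 (adjusted p = 5.57e-05) in that comparison. Tlr4 was lower at 8 weeks by about the same amount as without the covariate (-0.86 ± 0.17, adjusted p = 0.000204), and Cd14 came to -1.45 ± 0.40 (adjusted p = 0.00517). From 8 to 34 weeks in CD mice, none of the 10 genes was called higher with the covariate, against 28.6% of all genes, and Tlr2, Tlr4, Tlr9 and Cd14 were called lower, against 24%. The marker mean overlapped only in part between these groups, at 4.07 to 5.93 at 8 weeks and 5.52 to 8.44 at 34 weeks. Values with the covariate are therefore in part extrapolated here too. Tlr1 and Tlr8 came to -0.17 ± 0.28 and -0.05 ± 0.24 (adjusted p = 0.636 and 0.879), and Tlr2 to -1.16 ± 0.35 (adjusted p = 0.0065).

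Other genes with the most similar pattern were looked up among the 10342 other genes tested, by the Pearson correlation over 38 mice after removal of the group means, as a description without a test. Tlr1 was most like Ptpn6 (0.965), Tlr7 like the macrophage growth factor receptor Csf1r (0.963), Tlr8 like Adcy7 (0.975) and Tlr13 like Pirb (0.974) and Cd84 (0.973). Tlr2 was most like the phosphodiesterase gene Pde4b (0.942), the chemokine gene Cxcl2 (0.925) and the adhesion molecule gene Icam1 (0.917). Cd14 was most like Prkar1a (0.872), with the NF-kappaB inhibitor gene Tnfaip3 also among its nearest 3 (0.841), and Tlr9 like Gm8995 (0.893) and Tlr7 (0.890). Tlr3, Tlr4 and Tlr5 had weaker likenesses, led by Serpinb9 (0.858), Map3k1 (0.760) and Iqsec1 (0.771). Among the 10 genes themselves, Tlr1 and Tlr13 had the highest correlation (0.939), then Tlr8 and Tlr13 (0.936) and Tlr7 and Tlr8 (0.924).

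Partners, adaptors and targets of these receptors were described from lists of 92 genes, 80 of which were tested. In HFD against CD mice, 24 were higher and 10 lower at 8 weeks, 38 higher and 16 lower at 20 weeks, and 38 higher and 8 lower at 34 weeks. Of all genes tested, 29.8% were higher and 15.1% lower at 8 weeks, 38.3% and 18.7% at 20 weeks, and 27.5% and 15.7% at 34 weeks, which is also the background for each list below, and the count at 8 weeks is near it. The median log2 fold change of the 80 genes was 0.09, 0.30 and 0.34, beside the medians of all genes given above.

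Of 9 tested accessory proteins, 5 were higher in HFD mice at 8 weeks, 8 at 20 weeks and 7 at 34 weeks, against 29.8%, 38.3% and 27.5% of all genes, and none was lower. Cd180, a receptor-like protein of B cells and myeloid cells, lay at 3.31 to 24.0 CPM in CD and 48.1 to 117 CPM in HFD mice at 20 weeks (log2 fold change 2.80 ± 0.48, adjusted p = 1.2e-05). Its partner Ly86 rose by 2.47 ± 0.49 (adjusted p = 7.1e-05) and Unc93b1, which carries the nucleic acid receptors to endosomes, by 1.87 ± 0.36 (adjusted p = 4.9e-05). Ly96, which encodes the MD-2 partner of TLR4, passed at 34 weeks only among the diet comparisons (0.52 ± 0.18, adjusted p = 0.019). Lbp, the lipopolysaccharide binding protein, was higher at 8 weeks (1.51 ± 0.34, adjusted p = 0.00073) and 20 weeks (1.47 ± 0.34, adjusted p = 0.00046) and not at 34 weeks (0.08 ± 0.32, adjusted p = 0.85), where CD mice had reached 349 ± 166 CPM (SD, n = 8) against 199 ± 60.7 CPM (SD, n = 6) at 8 weeks.

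Among 5 tested adaptors, 3 were higher and 1 lower at 20 weeks (38.3% and 18.7% of all genes), 2 higher and 1 lower at 8 weeks (29.8% and 15.1%), and 3 higher at 34 weeks (27.5%). Pik3ap1 rose (2.69 ± 0.51 at 20 weeks, adjusted p = 3.5e-05), and so did Ticam2 (1.69 ± 0.36, adjusted p = 0.00017), the adaptor that links TLR4 to TRIF. Myd88, the adaptor shared by all the receptors here except TLR3, went the other way. It ranged from 83.7 to 128 CPM in CD and from 33.0 to 78.6 CPM in HFD mice at 8 weeks, without overlap, and from 125 to 207 CPM in CD and 62.1 to 101 CPM in HFD mice at 20 weeks, again without overlap. Its log2 fold changes were -1.09 ± 0.20 (adjusted p = 6.3e-05) and -0.999 ± 0.20 (adjusted p = 6.5e-05), and at 34 weeks 0.14 ± 0.18 (adjusted p = 0.56). In CD mice Myd88 fell by 0.98 ± 0.18 from 8 to 34 weeks (adjusted p = 3e-05), as Tlr4 did.

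Of 19 kinases and ubiquitin ligases tested, 11 were higher and 4 lower in HFD mice at 20 weeks, 5 and 3 at 8 weeks, and 9 and 2 at 34 weeks, the shares at 8 weeks being near those of all genes (29.8% and 15.1%). The largest changes at 20 weeks were in Ikbke (2.03 ± 0.34, adjusted p = 9.2e-06), Traf3 (1.21 ± 0.21, adjusted p = 9.8e-06) and Irak4 (1.06 ± 0.19, adjusted p = 2.1e-05). Of 10 transcription factors, 2 were higher and 3 lower at 8 and at 20 weeks, and 4 higher and 2 lower at 34 weeks (27.5% and 15.7% of all genes). Irf5, a factor of myeloid cells, rose by 3.02 ± 0.49 at 20 weeks (adjusted p = 4.7e-06) and Fos by 1.49 ± 0.26 (adjusted p = 1.2e-05), whereas the NF-kappaB subunit gene Rela fell by 0.83 ± 0.15 (adjusted p = 1.5e-05). Of 14 inhibitors tested, 6 were higher and 3 lower at 20 weeks, 3 and 1 at 8 weeks, and 7 and 2 at 34 weeks, where 27.5% and 15.7% of all genes were called. Tnip3 rose by 3.60 ± 0.54 at 20 weeks (adjusted p = 1.5e-06) and Nfkbie by 1.66 ± 0.40 (adjusted p = 0.00071), and Socs1, a suppressor of cytokine signalling, fell by 1.31 ± 0.24 (adjusted p = 2.7e-05).

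Proteins of the host reported as ligands of TLR2 or TLR4 were split. Of 8 tested, 1 was higher and 1 lower at 8 weeks, 2 higher and 3 lower at 20 weeks, and none higher and 2 lower at 34 weeks (27.5% and 15.7% of all genes). The matrix proteoglycan genes Bgn (2.83 ± 0.46, adjusted p = 5.3e-06) and Vcan (1.77 ± 0.36, adjusted p = 9.5e-05) rose at 20 weeks, and the acute phase gene Saa3 fell by 3.38 ± 0.87 (adjusted p = 0.0013), from 145 to 581 CPM in CD mice to 16.9 to 29.8 CPM in HFD mice. Of 15 inflammatory target genes tested, 6 were higher and 1 lower at 8 weeks, 6 and 2 at 20 weeks, and 8 and 0 at 34 weeks, and the shares at 20 weeks are near those of all genes (38.3% and 18.7%). The cytokine genes Il1b (4.23 ± 0.85, adjusted p = 9.1e-05) and Il10 (2.95 ± 0.70, adjusted p = 0.00055) and Icam1 (2.89 ± 0.55, adjusted p = 4.8e-05) had the largest changes at 20 weeks. In CD mice 11 of the 15 were higher at 20 than at 8 weeks, against 1.7% of all genes, and none was lower. In HFD mice all 15 were higher over the same span, against 21.2% of all genes. Tlr2 rose in both of these comparisons. From 20 to 34 weeks in HFD mice, 10 of the 15 were lower, against 12.5% of all genes, and none was higher.

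**Figure D5:**
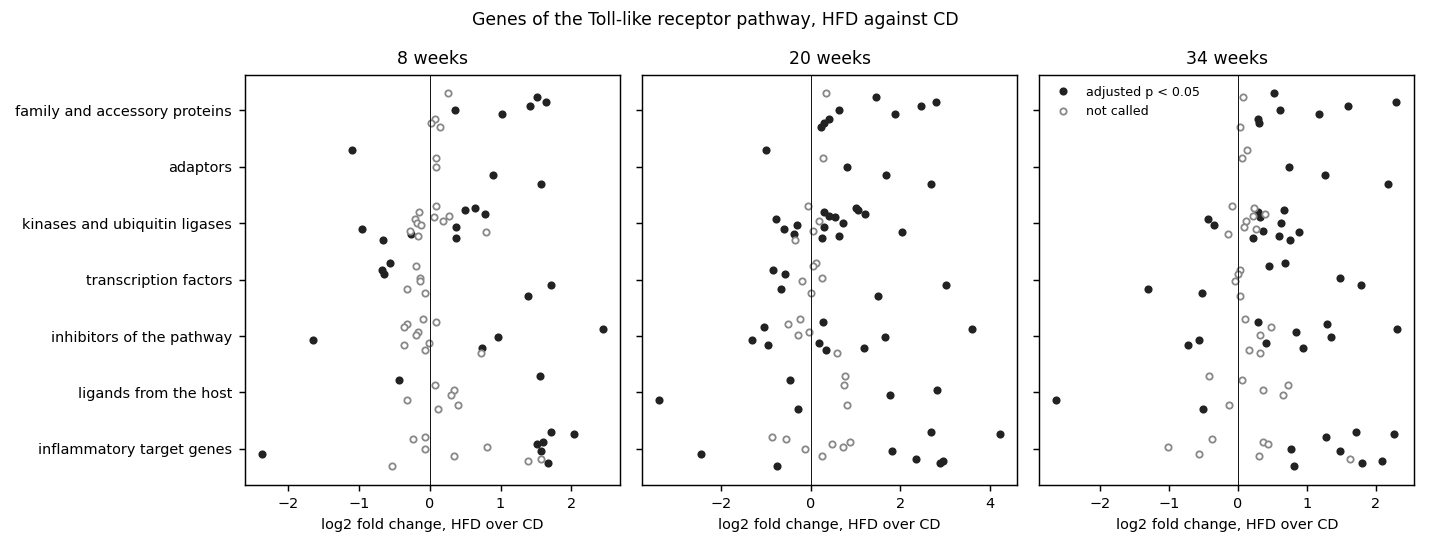
Log2 fold change of HFD over CD (horizontal axis) of each tested gene of the 7 pathway lists at 8, 20 and 34 weeks, filled where called and open where not. At 20 weeks 38 of 80 genes were higher and 16 lower.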

How the data were processed

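Per the labels, polyA RNA of adipocytes was sequenced from TruSeq stranded libraries. The submitters' processing notes name STAR (2.5 and 2.5.2b), featureCounts of Subread 1.5.1, edgeR and limma, and the builds GRCm38 and mm10. The methods state that exon unions of GENCODE vM2 were counted. The deposited CPM values were made by the authors, with technical replicates merged. Each mouse sums to the same total, and the TMM factors that the methods name could not be seen in the values. Every value was a whole number of reads (100% within 0.1 reads), and recovered reads per mouse ranged from 9275711 to 15480388. The value of 1 read is the smallest step in CPM and not a measure of error.

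log2(CPM + 1) was fitted with limma 3.58.1 (R 4.3.3) over the 6 groups with a mean-variance trend (32 residual degrees of freedom). edgeR 4.0.16 and DESeq2 1.42.0 on the recovered reads, other scalings, filters, pseudocounts, weights, a macrophage covariate, the mouse number as block and each mouse left out were the alternatives. Correlations used Python 3.11.15. Members, pathway and marker lists were chosen with earlier results of these data known, and 1 macrophage marker, Adgre1, was not used here. Of the pathway lists, 6 genes were always named and up to 3 others per list by their change at 20 weeks. The limma fit was also run on simulated reads with known changes. There all genes had the same dispersion and varied independently, so that run does not bear on the spread of the 10 genes. Replicate mice differed by more than sampling noise (chi-square per degree of freedom of at least 10.1 in 103 pairs). Lengths and positions are from GENCODE M21 on GRCm38, promoters from RefSeq.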

Additional observations from a re-analysis of the deposited data

Results flagged for a closer look

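Among 60 sets of values, each of 1 gene in 1 group, 2 held a mouse far from the others, and chance flags about 1 in 20. Both were in 20 week CD mouse 1, with 16.9 CPM of Tlr3 and 44.7 CPM of Tlr13, the highest of the 6 CD mice of that time. That mouse also had the highest macrophage marker mean of its group, whose part in these values was not tested.

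The diet difference changed with time for 2 genes by limma's interaction test. For Tlr4 it was higher by 0.73 at 34 against 20 weeks (adjusted p = 0.0275) and by 1.14 at 34 against 8 weeks (adjusted p = 0.000296) on the log2 scale. For Cd14 it was higher by 2.33 at 34 against 8 weeks (adjusted p = 0.00709). Of all genes tested, 10.5% were called at 34 against 20 weeks and 28.8% at 34 against 8 weeks. The calls among the 10 genes are not above these shares.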

How the results depend on the processing

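Direction turned in 4 results called with or without the alternative, all with the macrophage marker mean as covariate. Such values rest in part on slopes within groups, as stated above. From 8 to 34 weeks in CD mice Tlr1 came to -0.17, Tlr2 to -1.16 and Tlr8 to -0.0473, and from 20 to 34 weeks in HFD mice Tlr8 came to -0.55, of which Tlr2 and Tlr8 (HFD) passed (limma, adjusted p = 0.0065 and 0.0347). Signs of results that passed in neither fit, such as those of Tlr5, were not counted. Of the 10 genes, 6, 5 and 8 were called between the diets at 8, 20 and 34 weeks, and with single mice left out 4 to 6, 5 to 5 and 7 to 9. With the macrophage marker mean as covariate, 1 was called at 34 weeks. From 8 to 20 weeks in CD mice, where 2 were called, 1 was called with a pseudocount of 0.5, without the filter, with edgeR, with the replicate block and with the covariate, 4 with array weights, and 1 to 3 with single mice left out. From 8 to 34 weeks in CD mice, where 7 were called, 4 were called with the covariate and 7 to 7 with single mice left out. Those 4 were Tlr2, Tlr4, Tlr9 and Cd14, all lower, and only Tlr4 was among the 7. From 8 to 20 weeks in HFD mice, 6 to 7 were called with single mice left out. From 20 to 34 weeks in HFD mice, where 1 was called, 2 were called in a fit of these groups alone, 4 with the covariate and 0 to 2 with single mice left out. For the change of the diet difference from 8 to 20 weeks, where 0 were called, 1 was called with TMM and with size factors, 2 in a fit of the groups alone, 3 with array weights, 3 with the covariate, 2 without the 2 CD mice named in the report (chosen after seeing the data) and 0 to 2 with single mice left out. For that from 20 to 34 weeks, where 1 was called, 2 were called with TMM, size factors, edgeR and DESeq2, 5 with array weights, 6 with the covariate, 5 without those 2 mice and 0 to 3 with single mice left out. For that from 8 to 34 weeks, 2 to 2 were called with single mice left out. The share of all genes called is not given for these alternatives, apart from some fits with the covariate above. The shifts in these counts are therefore no result particular to the 10 genes. The cause of these shifts was not tested.

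No pairing of the samples by mouse number was seen, although these values cannot exclude one. Of 18 correlations of same-numbered mice, 8 were above 0.1 (range -0.51 to 0.53), and 3 of 18 were the best match. With the number as replicate block, 5, 5 and 9 genes were called between the diets at the 3 times. Tlr1 and Tlr9 rested on the fewest reads, which limits their precision.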
